A study of Homo sapiens with 2 samples.

Results

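The genes described here encode the DNA replication machinery and the enzymes that make its deoxynucleotides, from the origin recognition complex to ribonucleotide reductase. They were followed in hTERT-RPE1, a telomerase-immortalised line from human retinal pigment epithelium that can grow a primary cilium when it stops dividing. One sample received a control oligo, whose sequence is not given in the sources used here, and the other a miR-129-3p oligo, both by lipid transfection with RNAiMAX, in medium with 10% serum and hygromycin B. RNA was taken at 72 h. Each oligo was read on 1 Affymetrix array, so there is no spread between replicates and nothing here carries a test. The 43 genes were a list of names, out of 19775 genes with a probe set of their own on the array. The list was chosen by function, with earlier results of these data known. A gene was represented by its brightest probe set and taken as measured at an intensity of 100 or more on either array. By that limit 42 of the 43 genes were measured, among 12754 measured genes. ORC1 did not reach it, at 78.9 and 73.2; such pairs give the control array first and the miR-129-3p array next. POLD1 (137 and 153) and CDT1 (143 and 71.6) were the nearest above it.

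Replication begins with licensing. The origin recognition complex binds DNA, and CDC6 and CDT1 load the ring-shaped MCM2-7 helicase onto it, a step that geminin (GMNN) blocks outside G1. In S phase CDC45 and the GINS complex switch the helicase on, polymerase alpha and primase lay down primers, and polymerases delta and epsilon extend them while held by the PCNA clamp. Ribonucleotide reductase and thymidylate synthase supply the precursors. Many of these genes are transcribed late in G1 under E2F factors, so their RNA is low in resting cells.

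The added RNA is the arm of the miR-129 precursors shown here with its seed, bases 2 to 8 from the 5′ end, in capitals, because the seed is the part by which a miRNA selects targets. RefSeq (GRCh38.p14) lists 2 mature forms, from chr7:128207920-128207941 and chr11:43581450-43581471, both on the plus strand. They share the seed and differ at 1 position, base 20. Which form the oligo copied is not given in the sources used here.
hsa-miR-129-1-3p: aAGCCCUUaccccaaaaaguau
hsa-miR-129-2-3p: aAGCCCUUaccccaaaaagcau
Seed matches in the transcripts of the replication genes were not analysed here.

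Median intensities of the 54613 probe sets were 96.5 and 98.0, and a signal of 100 was reached by 48.9% and 49.4% of them. Of 10 markers of retinal pigment epithelium 3 were measured: MITF (2470.3 and 1020.2), OTX2 (1452 and 1625) and PMEL (114 and 229). RPE65, the visual-cycle enzyme that defines the mature tissue, was at 6.44 and 6.66. Of the epithelial markers KRT8 read 6138 and 4918, and KRT18 5787 and 2972 (-0.96), while CDH1 was at 103 and 89.7, KRT19 at 50.4 and 59.2 and EPCAM at 19.6 and 9.86. The mesenchymal markers VIM (18474 and 16201) and CDH2 (6947 and 5448) were bright, and the highest of the blood and endothelial markers was PECAM1 at 230 and 270.2. Proliferation markers differed with the oligo as well: MKI67 (the Ki-67 antigen) read 734 and 217, and CDKN1A (the CDK inhibitor p21) 2085 and 6523. Of 7 proliferation markers 5 were at least 1.5-fold lower, against 10.8% of all measured genes. All 4 p53 and arrest markers were at least 1.5-fold higher, against 17.3% of all measured genes. These marker lists were chosen with earlier results of these data known. The part of the cell cycle state in the values below was not tested, and fewer cells in S phase cannot be told apart from less RNA per cell.

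Differences are given as log2(value + 16) on the miR-129-3p array minus control, a scale that understates the difference of dim genes. Most replication genes were lower with miR-129-3p. Of the 42 measured genes 33 had a difference below 0, against 6002 of all 12754 measured genes. At the 1.5-fold limit 22 (52.4%) were lower, against 10.8% of all measured genes. One, ORC4, was at least 1.5-fold higher (2.38%), against 17.3% of all measured genes. At a limit of 2-fold, 8 of the 42 (19.0%) were lower, against 4.56% of all, and 0 were higher. Their median difference was -0.67, a 1.59-fold lower signal, and that of all measured genes 0.03. The lower side held the reductase, thymidine kinase, the helicase and its activators. The origin recognition complex, the PCNA clamp and several polymerase subunits stood outside it.

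**Figure D1:**
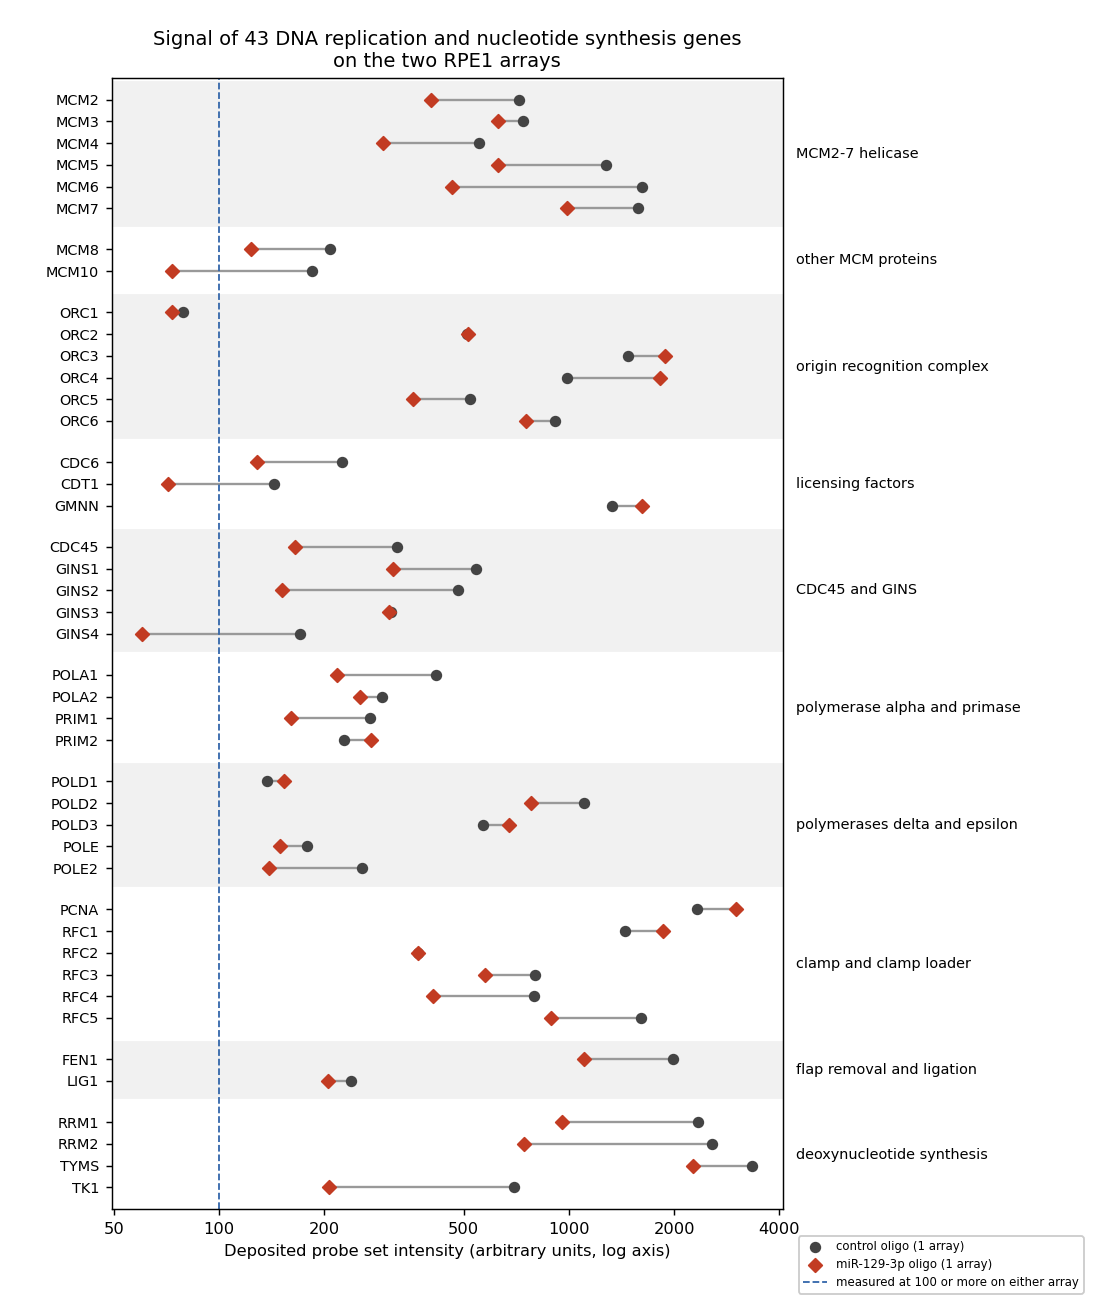
Intensity of each of the 43 genes on the control array (dark circles) and the miR-129-3p array (red diamonds), on a log axis, grouped by role; a grey line joins the 1 array of each group, and the dashed line marks 100. Red diamonds lie left of the circles for 33 of the 42 measured genes, with the widest gaps at RRM2 and MCM6, and right of them for PCNA and ORC4.

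The MCM2-7 helicase unwinds the parental strands, and all 6 of its genes were below 0, with a median of -0.85. MCM6 read 1615 and 464, a difference of -1.76 (3.40-fold lower). It ranked 171 of 12754 measured genes from the lowest, next to RRM2 at 170. MCM5 read 1278 and 626 (-1.01), MCM4 553 and 294 (-0.88), and MCM2 719 and 403 (-0.81). The other measured probe sets of MCM4 were short of 1.5-fold, at -0.56 and -0.54. MCM7 read 1575 and 989 and lay just past 1.5-fold at -0.66. MCM3 was the exception, at 741 and 627 (-0.23). The 6 subunits are built into the helicase in equal number, and their differences on these arrays ran from -1.76 to -0.23.

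Among the other MCM proteins, MCM10, which helps start the unwinding, read 184 and 73.1 (-1.17). MCM8, which acts with MCM9 in recombination-linked synthesis, read 208 and 123 (-0.68), and -0.41 as the mean of its probe sets. Both were lower, MCM10 to a signal below 100, where the size of the difference depends on how low signals are treated. With every signal under 100 set to 100 it was -0.79.

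Activation of the helicase needs CDC45 and the GINS complex, and 4 of these 5 genes passed 1.5-fold on the lower side. Their median was -0.90. CDC45 read 321 and 165 (-0.90), and GINS1 read 542 and 314 (-0.76). GINS2 had the largest gap of the complex, 482 and 151 (-1.58), but only on the probe set used, since its other measured probe set read 145 and 134 (-0.10). GINS4 read 170.1 and 60.3 (-1.29), and -0.68 with low signals set to 100. The other probe sets of GINS4 were under 100 on both arrays and lay between -0.76 and 0.03. GINS3 did not differ by that much: it read 310.2 and 306 (-0.02), and 256 and 288 (0.16) on its other probe set. GINS1 and GINS4 were thus lower, GINS4 on its only measured probe set. GINS3 was level, and the probe sets of GINS2 disagreed.

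Licensing genes were mixed. CDC6, the loader, read 225 and 128.5 (-0.74), and CDT1, its partner, 143 and 71.6 (-0.86, or -0.46 with low signals set to 100). GMNN, whose product binds and inhibits CDT1, read 1329 and 1615 (0.28). CDC6 was lower on its second probe set too (-1.09). CDT1 fell short of 1.5-fold with low signals set to 100, and its other probe set, under 100 on both arrays, was at -0.21. GMNN was not lower.

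The origin recognition complex marks origins, and its genes had a median of 0.01 over the 5 measured. ORC4 was the only member at least 1.5-fold higher, at 991 and 1827 (0.87). Its second probe set read 154 and 357 (1.13), the same direction and at least as large. ORC3 read 1474 and 1883 (0.35) and ORC2 511 and 516 (0.01). ORC5 read 522 and 359 (-0.52) and ORC6 914 and 753 (-0.27), both short of 1.5-fold. ORC5 was near the limit: its second measured probe set was at -0.58. The gene passed 1.5-fold after quantile normalization (-0.60) and with the lowess trend removed (-0.59). With the main setting none of the 5 was at least 1.5-fold lower. Of the 6 helicase genes 5 were, MCM4 among them on 1 of its 3 measured probe sets. The sign of so small a median is not stable: it lay between -0.07 and 0.13 over the alternative settings.

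Polymerase alpha carries primase to the fork and makes the primers. Its catalytic subunit POLA1 read 418 and 217 (-0.90), and PRIM1, the catalytic primase subunit, read 270.5 and 161 (-0.70). The accessory subunits differed less. POLA2 read 292 and 253 (-0.20), and PRIM2 read 227 and 271 (0.24). Both catalytic genes were at least 1.5-fold lower and both accessory genes within that limit, but PRIM1 was just past it and was at -0.57 with 64 added to each signal in place of 16.

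Polymerases delta and epsilon copy the lagging and leading strands, and 1 of the 5 members among their subunits passed the limit. POLE2, the second subunit of epsilon, read 256 and 139 (-0.81), while POLE, its catalytic subunit, read 178 and 150 (-0.23). POLD1, the catalytic subunit of delta, read 137 and 153 (0.14), POLD2 1104 and 781 (-0.49) and POLD3 569 and 673 (0.23). Of the smaller subunits, which come from the list of further replication genes, POLD4 read 967 and 388 (-1.28), POLE3 971 and 902 (-0.10) and POLE4 999 and 1034 (0.05). Over all 8 subunits, POLE2 and POLD4 were at least 1.5-fold lower.

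PCNA is the sliding clamp that tethers the polymerases and also serves in repair, where it is a known p53 target. It read 2330.3 and 3002, a difference of 0.36 on its only probe set. The clamp loader that opens it went both ways. RFC4 read 794 and 409 (-0.93) and RFC5 1609 and 891 (-0.84), with the other 2 probe sets of RFC5 between -0.48 and -0.37. RFC3 read 799 and 575 (-0.46). RFC2 was level at 370.2 and 369.8, and RFC1, the large subunit, read 1452 and 1853 (0.35). Of the 6 genes 2 were at least 1.5-fold lower and 0 higher, and the clamp and the large loader subunit lay on the other side of 0 from the small loader subunits RFC3, RFC4 and RFC5.

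Maturation of the lagging strand uses FEN1, the flap nuclease, and LIG1, the ligase that seals the nicks. FEN1 read 1989 and 1103 (-0.84), and 559 and 289 (-0.92) on its second probe set. LIG1 read 238 and 205 (-0.20). The nuclease was lower on both probe sets, and the ligase was within 1.5-fold.

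Deoxynucleotide synthesis had the lowest median of the 10 roles, -1.47 over 4 genes. RRM2, the small subunit of ribonucleotide reductase whose level is known to peak in S phase, read 2571 and 744 (-1.77, 3.41-fold lower). Its second probe set read 1877 and 694 (-1.41). RRM1, the large subunit, read 2336 and 959 (-1.27), and 494 and 214 (-1.15) on its second. Both reductase subunits were thus lower on each of their measured probe sets. TK1, the thymidine kinase of the salvage route, read 697 and 207 (-1.68), and 591 and 226 (-1.32). TYMS, which makes thymidylate from deoxyuridylate, read 3342 and 2268 (-0.56), just short of 1.5-fold, with -0.55 on its second measured probe set.

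The other probe sets of these genes are the only second readout on the arrays, and they hold no spread between cultures. The 43 genes had 81 probe sets, of which 65 reached 100 on either array. Of 23 measured probe sets that were not used for the gene value, 20 had the sign of the one that was. The exceptions were those of GINS3, POLD3 and RFC2, genes whose chosen difference was between -0.02 and 0.23. Where the gene was at least 1.5-fold lower, all 13 of its other measured probe sets were below 0 and 8 of the 13 were at least 1.5-fold lower. Across the 21 genes with more than 1 measured probe set, the pooled SD of differences within a gene was 0.27, and over all 6179 such genes on the arrays 0.37. The range within a gene was smallest for MCM7 (0.0013) and largest for GINS2 (1.48). Differences under about the size of that SD, such as those of LIG1, POLA2, POLE or MCM3, were no larger than the disagreement between probe sets of one gene. On the higher side PCNA (0.36), ORC3 (0.35), RFC1 (0.35) and GMNN (0.28) were also under the 0.37 over all genes. The second measured probe set of RFC1 was at 0.37 as well.

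**Figure D2:**
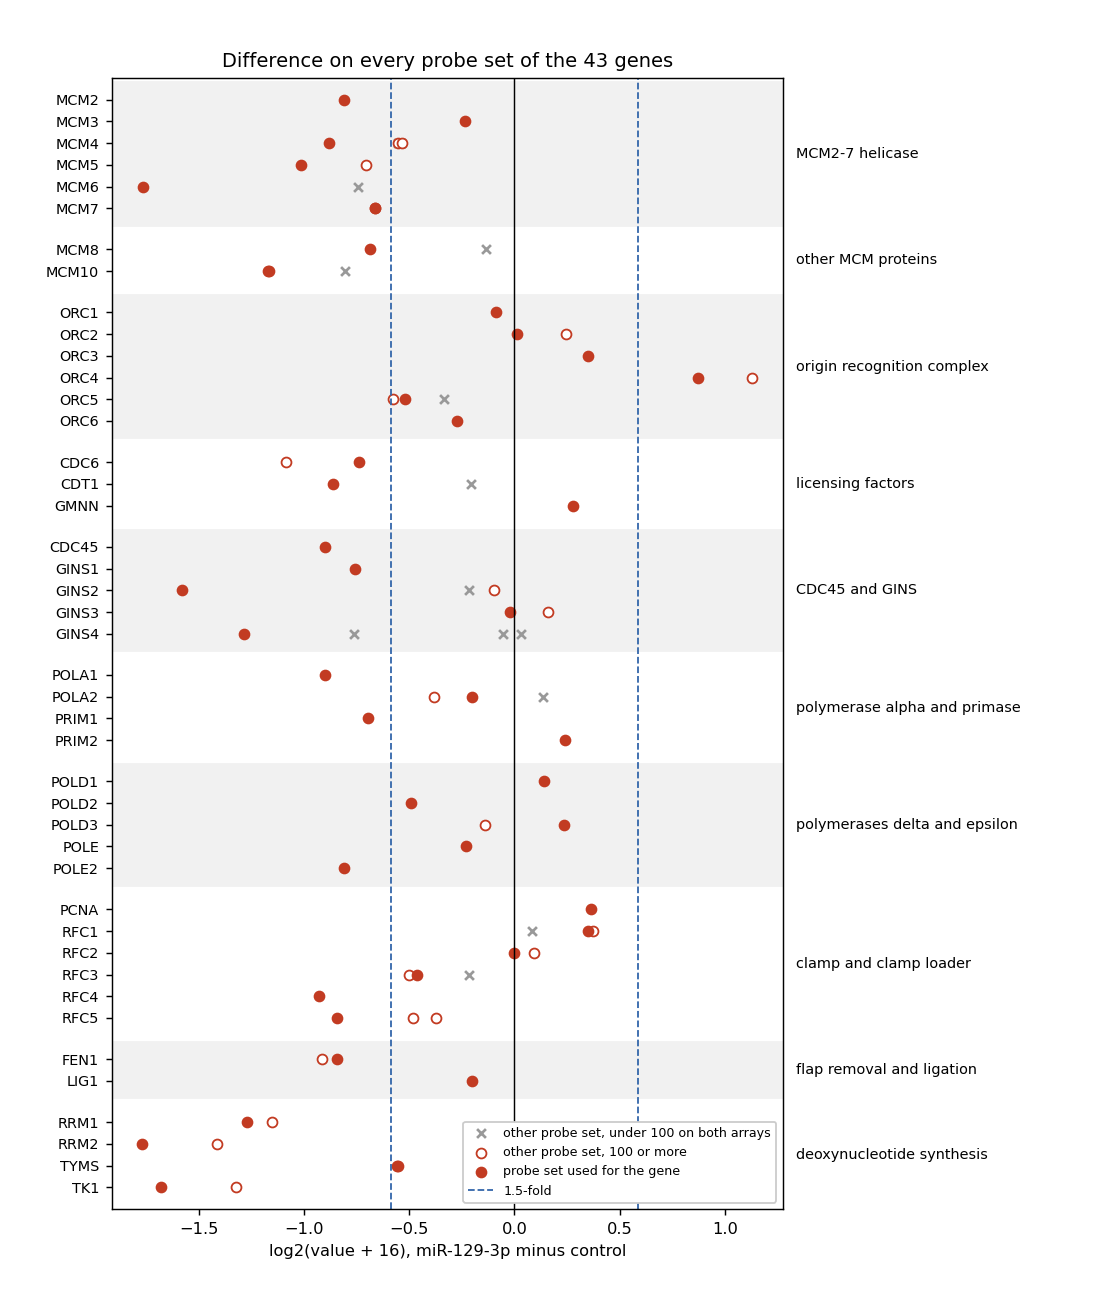
Difference (log2 scale, miR-129-3p minus control) on every probe set of the 43 genes: filled circles are the probe set used, open circles other probe sets at 100 or more on either array, and crosses those under 100 on both. RRM1, RRM2, TK1 and FEN1 lie left of the 1.5-fold line on both measured probe sets, ORC4 lies right of it on both, and GINS2 has the widest spread.

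The search was widened to replication genes outside the 43. From a list of 37 further replication genes, 35 were measured, and 10 of those (28.6%) passed 1.5-fold on the lower side and 1 (2.86%) on the higher side. All measured genes gave 10.8% and 17.3%. The median of the 35 was -0.33, and 29 of them were below 0, against 6002 of all 12754 measured genes. TOP2A, the topoisomerase that resolves replicated DNA and peaks in G2, read 2021 and 529 (-1.90, and -1.87 on its second measured probe set). UHRF1, which recruits the maintenance methyltransferase, read 1787 and 578 (-1.60), and POLD4, described above, was the next lowest at -1.28. At the other end stood ASF1A, a histone chaperone (1164 and 1861, 0.67), TICRR, an origin firing factor (206 and 251, 0.27), and TOP1, a topoisomerase (2286 and 2624, 0.20). By function, the count at least 1.5-fold lower was 4 of 6 for chromatin assembly and 4 of 12 for fork proteins. It was 1 of 8 for origin firing, near the 10.8% of all measured genes. Okazaki fragment processing had 1 of 5, and clamp unloading and cohesion loaders 0 of 4. In chromatin assembly CHAF1A was at -0.87 on the probe set used, but at -0.46 and -0.34 on its other measured ones. CHAF1B was just past the limit at -0.59.

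On the brightest probe sets, nucleotide metabolism outside the 4 S phase enzymes had counts past 1.5-fold near those of all genes. Of 32 measured genes 5 (15.6%) passed 1.5-fold on the lower side and 4 (12.5%) on the higher side, where all measured genes gave 10.8% and 17.3%. The median was -0.12, and 25 of the 32 were below 0, as against 6002 of all 12754 measured genes. DTYMK, which phosphorylates thymidylate after TYMS and TK1 have made it, read 1013 and 502 (-0.99). MTHFD2, a mitochondrial folate enzyme, read 4399 and 2244 (-0.97), and IMPDH2, of guanine nucleotide synthesis, read 4461 and 2449.7 (-0.86). On their brightest probe sets, 0 of the 5 pyrimidine synthesis genes passed 1.5-fold either way. CTPS2, a CTP synthase, read 453 and 418 (-0.11) there but 400.2 and 159 (-1.25) on its other probe set, and -0.68 as the mean of both. DUT, which removes deoxyuridine triphosphate, read 5003 and 4487 (-0.16) on its brightest probe set, but 373 and 211 (-0.78) on another. CMPK1, SHMT2 and GMPS were also short of 1.5-fold on the brightest but past it on another (-0.98, -0.65 and -0.59). DTYMK, PRPS2 and PPAT, past it on the brightest, each had a measured probe set short of it (-0.21, -0.53 and 0.26).

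The highest differences of the list lay among genes that set the deoxynucleotide pool by other routes. RRM2B, the p53-inducible alternative small subunit of ribonucleotide reductase, read 965 and 2150.1 (1.14, 2.21-fold higher) on its only probe set. RRM2 and RRM2B, which occupy the same place in the enzyme, therefore differed in opposite directions on these arrays. SAMHD1, an interferon-inducible enzyme that breaks down deoxynucleoside triphosphates, read 436 and 6815 (3.92). Its 6 probe sets all lay between 2.79 and 3.92. CMPK2, a mitochondrial nucleotide kinase also induced by interferon, read 27.8 and 3038 (6.12), or 4.72 with low signals set to 100. The arrays read RNA, so enzyme activity and nucleotide pools were not measured.

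**Figure D3:**
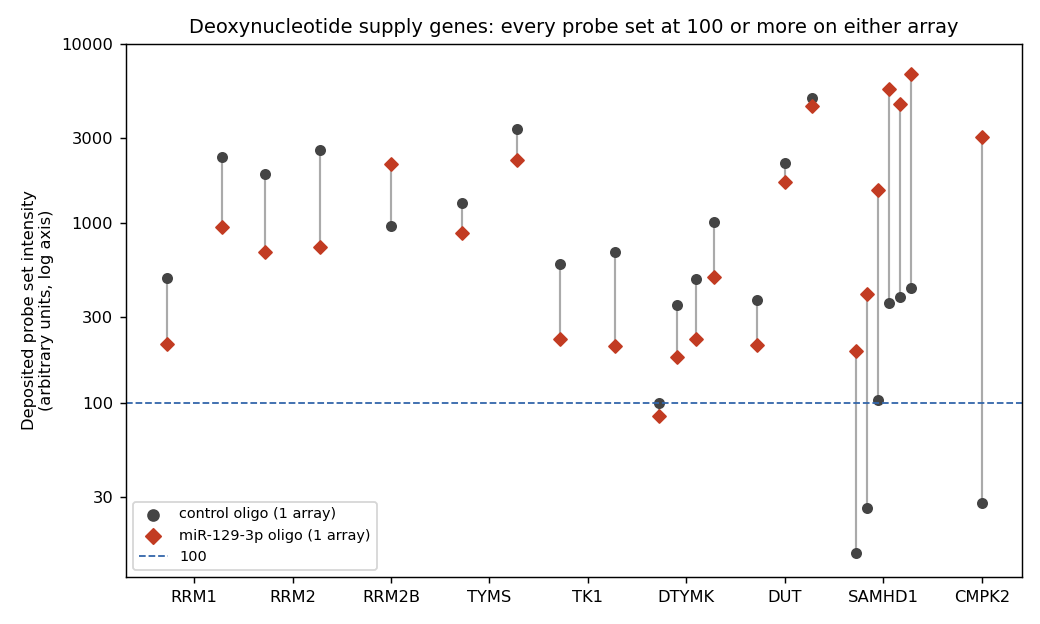
Intensity (log axis) of every probe set at 100 or more on either array for 9 genes of deoxynucleotide supply, control as dark circles and miR-129-3p as red diamonds, 1 array each. Diamonds lie below the circles for RRM1, RRM2, TYMS, TK1, DTYMK and DUT, and above them for RRM2B, SAMHD1 and CMPK2.

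**Figure D4:**
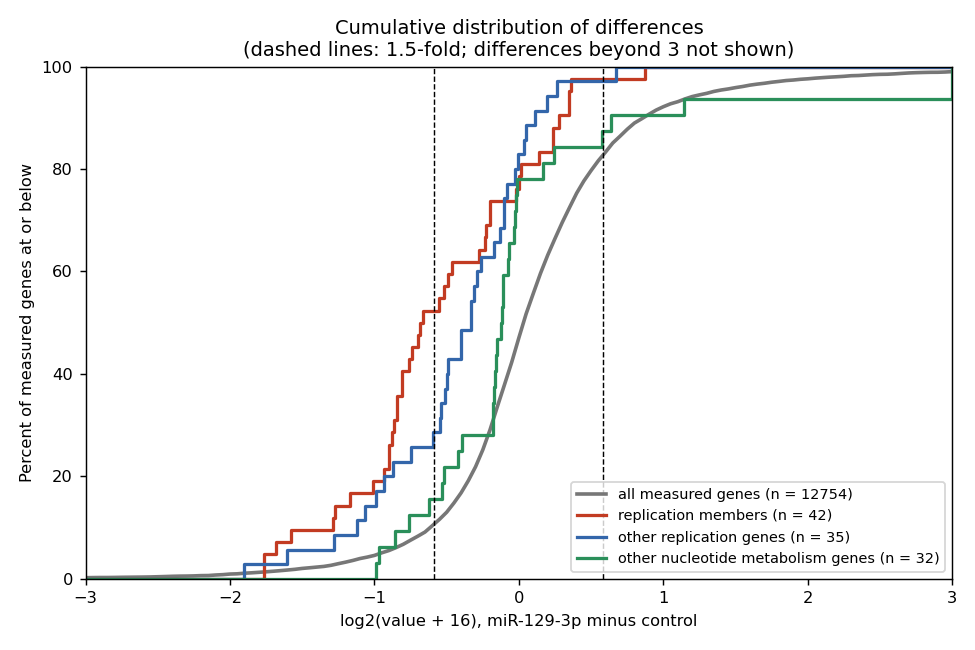
Cumulative share of genes (percent) against the log2 difference, for 42 measured replication members, 35 other replication genes, 32 other nucleotide metabolism genes and 12754 measured genes; dashed lines mark 1.5-fold. At the left dashed line the members reach 52.4%, the other replication genes 28.6%, the nucleotide metabolism genes 15.6% and all genes 10.8%.

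Promoters were read because many of these genes are known E2F targets. A part for E2F in the differences was not tested. RefSeq windows (GRCh38.p14, 250 bases before to 50 after the annotated start) were found for 39 of the 43 genes. MCM4, MCM5, GINS4 and POLD3 had none. An E2F motif was counted as TTTCCCGC, TTTCGCGC, TTTGCCGC or TTTGGCGC on either strand, in any window of a gene with several starts, and copies on opposite strands may overlap. Of the 39 genes 20 (51.3%) held one, against 6.39% of 10338 measured genes with a window. Its share was the same on both sides of the fold limit: 10 of 19 lower genes held it, and 10 of 19 measured genes that were not lower. CCAAT, on either strand, was held by 14 of the 19 lower genes (73.7%), 9 of the 19 others (47.4%) and 4442 of 10338 measured genes with a window. The CHR letters, TTTGAA or TTCGAA, were held by 2 members, MCM6 and RRM1, and by 15.8% of measured genes. The windows of RRM2, TK1 and RRM1 held none of the E2F letters, which says only that those letters are not in these windows.

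**Figure D5:**
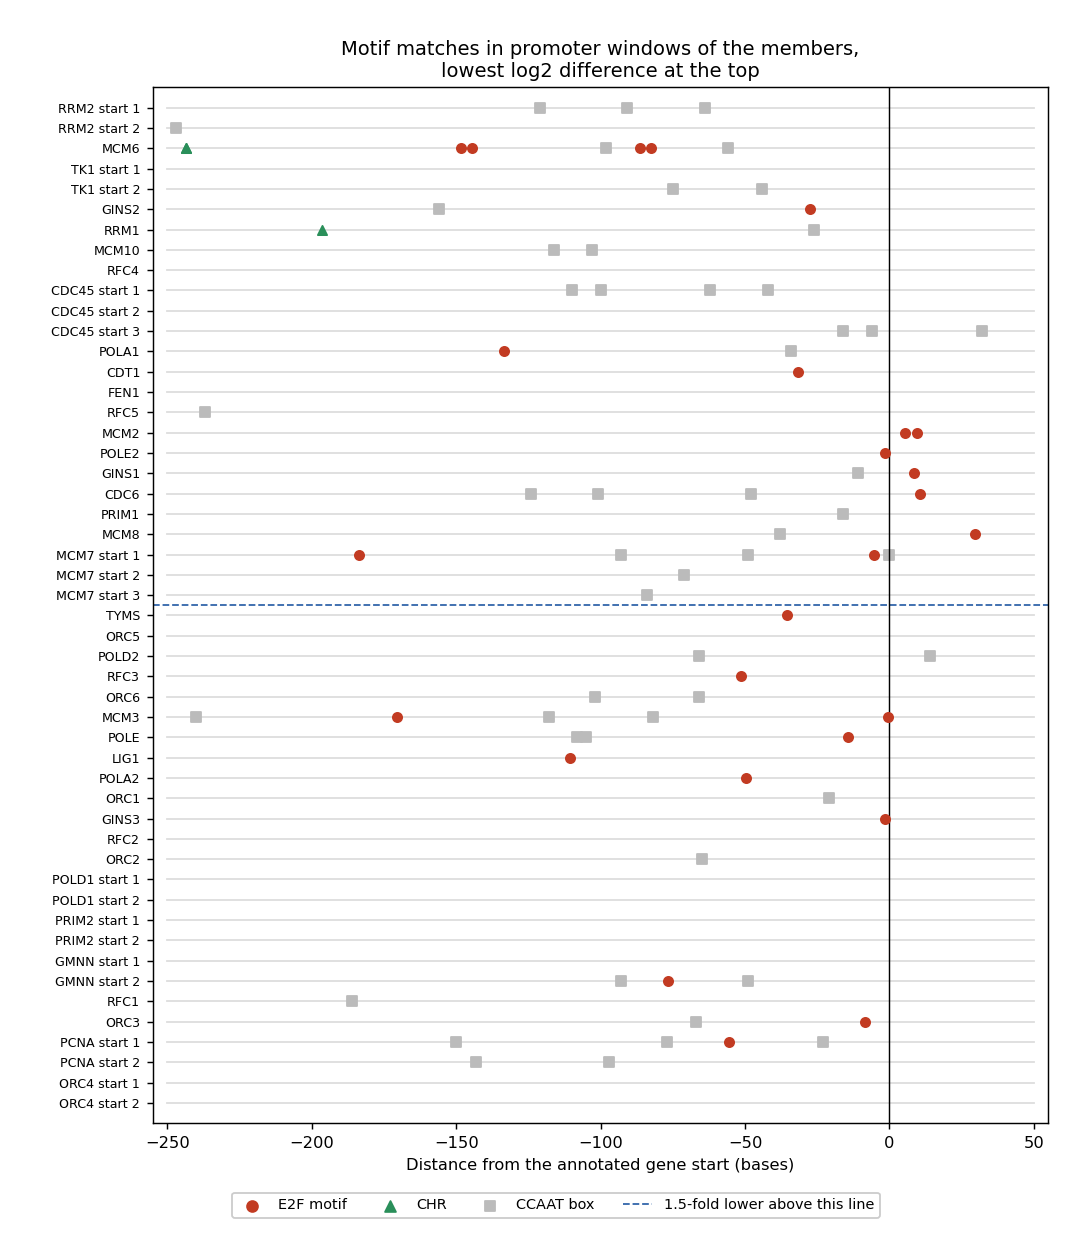
Motif positions in bases from the annotated gene start for 39 genes, 1 line for each listed start, ordered from the lowest difference at the top: red circles are E2F motifs, green triangles CHR and grey squares CCAAT. Red circles occur above and below the blue dashed line, which separates genes at least 1.5-fold lower from the rest.

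The 160 bases before the start are shown for MCM6, GINS2 and POLA1, the 3 lowest genes with a window and an E2F motif there. GINS4 (-1.29) and MCM5 (-1.01) were lower than POLA1 but had no window to search. PCNA is shown too: it lay above 0, within the 1.5-fold limit, and holds the motif. The bases are written 5′ to 3′ on the gene's strand, with E2F matches on either strand in capitals. MCM6 lies on the minus strand at chr2:135876444-135876603, GINS2 on the minus strand at chr16:85688955-85689114, POLA1 on the plus strand at chrX:24693758-24693917 and PCNA on the minus strand at chr20:5126623-5126782, the first of its 2 listed starts. In MCM6 the 2 stretches in capitals each hold 2 overlapping matches, 1 per strand. The other 3 genes hold 1 match each in the stretch shown.
MCM6: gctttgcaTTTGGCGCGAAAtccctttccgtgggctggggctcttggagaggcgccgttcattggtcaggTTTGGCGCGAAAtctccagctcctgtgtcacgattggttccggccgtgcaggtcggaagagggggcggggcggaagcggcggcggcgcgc
GINS2: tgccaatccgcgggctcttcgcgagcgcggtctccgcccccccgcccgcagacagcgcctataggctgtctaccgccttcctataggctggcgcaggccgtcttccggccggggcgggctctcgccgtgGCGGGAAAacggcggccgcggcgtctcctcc
POLA1: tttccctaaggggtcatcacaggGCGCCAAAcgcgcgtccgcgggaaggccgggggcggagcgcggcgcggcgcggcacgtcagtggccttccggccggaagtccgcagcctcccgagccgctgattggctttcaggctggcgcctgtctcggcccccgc
PCNA: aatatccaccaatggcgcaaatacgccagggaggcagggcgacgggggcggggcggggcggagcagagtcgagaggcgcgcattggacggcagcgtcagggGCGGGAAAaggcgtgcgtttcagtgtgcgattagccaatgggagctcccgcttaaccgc
GINS2 and PCNA hold the same letters, GCGGGAAA on the gene's strand, and differed by -1.58 and 0.36 on the probe sets used. The other measured probe set of GINS2 was at -0.10, and PCNA has only 1 probe set.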

How the data were processed

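The deposited table held 1 intensity per probe set and array, linear from 1 to 20822. MAS5 and RMA both appear in the submitters' processing notes. Which of them made these deposited intensities, and by what scaling between arrays, is not given in the sources used here. If low signals were compressed upstream, differences of dim genes are affected. Groups came from the genotype label.

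A single gene symbol was paired with 41091 of the 54613 probe sets, and 11721 were unnamed. The 1801 that list several genes were not used. Among these, 4 listed PRIM2, all under 100. Of the named probe sets 41037 matched the RefSeq gene table (GRCh38.p14). For each gene the probe set of highest average log2(value + 16) over both arrays was used, and a gene was measured at 100 or more on either array. The fold limit was 1.5. Near-identical copies can share probe sets: of the 42 measured members 2 rest on probe sets ending in _x_at and 18 on _s_at.

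Members and lists were chosen with earlier results of these data known. All members are given. From the other replication and nucleotide metabolism lists the text names the 3 lowest and 3 highest genes, and from all lists RRM2B, DUT, SAMHD1, CMPK2, MKI67 and CDKN1A whatever their values. A further gene under that rule is not reported here. Cell type markers, CHAF1A, CHAF1B, CTPS2, CMPK1, SHMT2, GMPS, PRPS2, PPAT, POLE3 and POLE4 were named after their values were seen. The code was tested on simulated data. Tables were handled with pandas 2.3.3 and numpy 2.4.6 under Python 3.11.15; statsmodels 0.14.6 gave the lowess trend and matplotlib 3.10.9 the plots. The closing section gives the alternatives tried.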

Additional observations from a re-analysis of the deposited data

How the results depend on the processing

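Results were recomputed with 12 alternatives, of which 1, setting signals under 100 to 100, was chosen after the data were seen. The median of the members ranged from -0.75 to -0.48. The count of lower members was 13 of the 30 measured without probe sets ending in _x_at or _s_at, where the median of CDC45 and GINS was -0.43. With the main choice of probe sets, 10.8% of all measured genes were lower. At a 2-fold limit 8 members were lower and 0 higher, with 5 other replication genes and 0 nucleotide metabolism genes lower. Of all measured genes 4.56% were lower and 7.83% higher at 2-fold. At a looser limit, a difference of 0.32 on the log2 scale, 26 of the 42 members were lower and 4 higher. Of the other replication genes 19 of 35 were lower there, and of the nucleotide metabolism genes 9 of 32. All measured genes gave 20.6% lower and 29.1% higher at that limit. The licensing median was -0.32 with the mean of all probe sets and 0.28 with a mean signal of 200 or more, which left only GMNN. Of 22 lower members 16 were at least 1.5-fold lower under every alternative that measured them; the others were CDT1, GINS2, MCM4, MCM8, PRIM1 and RFC5. All 205 values of the 22 were below 0. The 22 were picked as lower on these same arrays, and most alternatives keep the same probe set. A change of sign was therefore hardly possible, and the count is no separate support. No paired analysis was possible because each group has 1 array. With 1 array per group, the spread between cultures is unknown.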
